A study of Isostichopus badionotus with 6 samples.

Results

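Locus_1055 is the assembled locus to which the paper's supplement assigns most of its alpha tubulin matches in the sea cucumber Isostichopus badionotus. Its members were taken as every row of the count table whose identifier begins with that locus, which gave 12 transcripts of 129776 counted ones. The numbering of the assembly runs to 81 for this locus, and the other 69 numbers have no row of counts. RNA of the body wall was sequenced from 6 captive animals. Of these, 2 are labelled as adults adapted to captivity (adults 5 and 6) and 4 as juveniles in captivity (juveniles 1 to 4), while the design text of the series calls all of them juveniles. The labels name no treatment or genotype for any animal, and each library came from the eviscerated body wall of 1 animal, which was cut into several pieces. The labels give no age for either group, and no source states the age of the adults. The paper describes its farmed animals as first generation and about 2 years old, without saying which of these 6 they are. It also mentions animals kept in culture after capture, so origin may differ between the groups too. Stage and adaptation to captivity change together in the labels, so they cannot be told apart. Each animal is 1 replicate, and nothing states whether the adults were sequenced together with the juveniles.

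Alpha tubulin pairs with beta tubulin to form the subunit of microtubules, the hollow filaments that carry cargo in neurons, build the mitotic spindle and form the core of cilia. Animals carry several alpha tubulin genes whose proteins are nearly alike, and in sea urchins, relatives of sea cucumbers, some of these genes are used mainly in neural or ciliated cells. The body wall of a sea cucumber holds an epidermis, thick collagenous connective tissue, nerve fibres and muscle, and all of these use microtubules.

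The name of the locus rests on 3 of the 12 members. Transcript 74, the longest at 2023 nt, is matched to the neural alpha 2 tubulin of the sea urchin Paracentrotus lividus. Transcript 57 (454 nt) is matched to alpha-tubulin of the sea star Patiria miniata, and transcript 14 (690 nt) to a tubulin alpha chain-like mRNA of the fish Salvelinus alpinus. The matches used here come from the supplement's list of transcripts that differed between wild and farmed animals. These 3 stand there as higher in farmed animals, so that list is not independent evidence for them. No match was given there for the other 9, which run from 128 to 1082 nt. A transcript that did not differ would not be listed, so a missing match does not show that a member is unlike tubulin. The 3 matched members together held 48.9% and 27.1% of the locus counts in adults 5 and 6, against 42.8%, 50.9%, 58.0% and 57.8% in juveniles 1 to 4. The matches used here thus cover between 27.1% and 58.0% of what was counted. The rest, whose identity was not checked, is called here by its locus.

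The libraries held between 21714696 and 31742950 counts. Levels are given as CPM, the counts set against a fixed total per library, on totals scaled by TMM, edgeR's trimmed mean of M values, whose factors lay between 1.04 and 1.32 in juveniles and were 0.973 in adult 5 and 0.586 in adult 6. In adult 6 the 10 most counted transcripts took 34.8% of all counts, against 16.2% to 23.7% in the other 5 animals. Scaling therefore raises the levels of adult 6, and values on plain totals are given where this matters.

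The locus as a whole was counted 6466 and 5729 times in adults 5 and 6, and 4681, 4113, 5666 and 5527 times in juveniles 1 to 4. On scaled totals it stood at 280 and 373 CPM in the adults, against 131, 181, 167 and 147 CPM in the juveniles, a juvenile mean of 157 ± 22.0 CPM (SD, n = 4). Both adults lay above every juvenile. The adult mean of 326 CPM was 2.08 times the juvenile mean. On this scale the 4 juveniles differed from each other by less than the adults differed from them. On plain totals the locus stood at 272 and 219 CPM in the adults, against 147, 189, 189 and 195 CPM in the juveniles, so the groups stayed apart but the ratio of means was 1.36. There adult 6 lay nearer to juvenile 4 than juvenile 1 did.

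**Figure D1:**
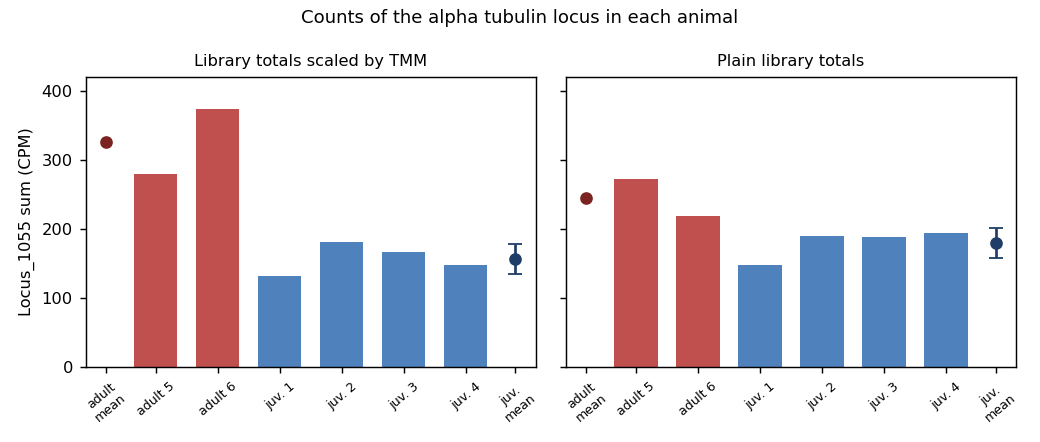
Sum of all 12 members of Locus_1055 in CPM for each animal, adults in red and juveniles in blue, on TMM-scaled totals (left) and plain totals (right). Dark points give group means, with the SD of the 4 juveniles as a bar. Both adults lie above every juvenile on either scale, by 2.08 times on scaled totals and 1.36 times on plain totals when means are compared.

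The fit across 8876 loci did not call this difference. The edgeR quasi-likelihood test gave a log2 fold change of 1.15 with an SE of 0.36, an unadjusted p of 0.0140 and an adjusted p of 0.600. No locus passed an adjusted p of 0.05 in this comparison (0% called), and 7.94% had an unadjusted p below 0.05. DESeq2 gave the locus a log2 fold change of 1.21 and an adjusted p of 0.0363, among 154 loci it called, and edgeR's exact test gave 0.463 and called 7 loci. The exact two-sided permutation test over the 6 animals gave p = 0.0667 on both scales, which is the smallest value that 15 arrangements of 2 adults and 4 juveniles allow. The median of all loci was -0.11 in the same fit and -0.76 on plain totals, where the locus stood at 0.45. Relative to that median the locus was 1.26 higher on scaled totals and 1.20 higher on plain totals, on the log2 scale.

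Counts within the locus were unevenly spread. In every animal 2 or 3 members were enough to reach 50% of the locus counts, and 5 or 6 to reach 90%. Transcript 7 (686 nt) was the most counted member in 5 of the 6 animals, and transcript 14 was in juvenile 4. The other leading members were transcript 74, transcript 57, transcript 42 (527 nt), transcript 50 (1082 nt) and transcript 28 (641 nt). These 7 held 96.1% and 95.9% of the locus in adults 5 and 6, against 95.02%, 97.9%, 97.1% and 95.6% in juveniles 1 to 4. Because only reads with a unique match were counted, a member's count depends on how much of it is unlike its neighbours, and the split of counts among members is uncertain.

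**Figure D2:**
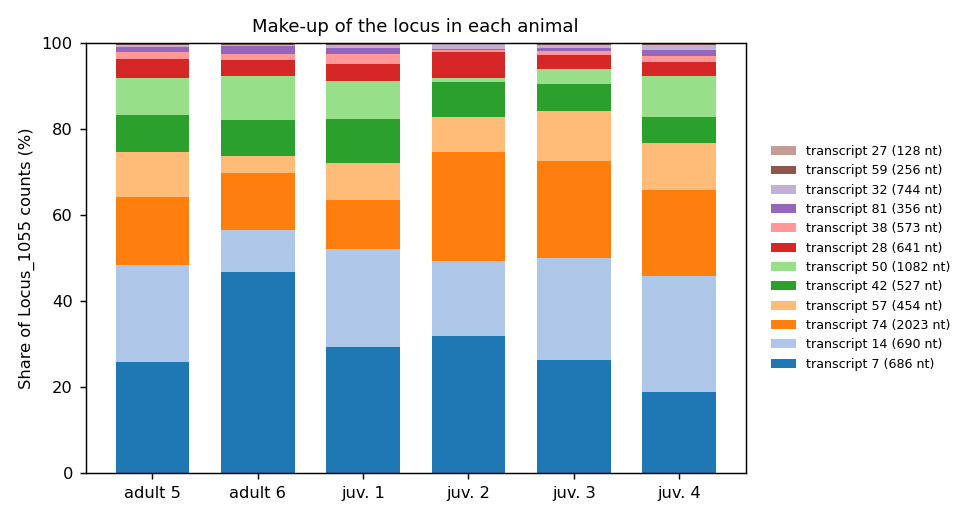
Share of the Locus_1055 counts (%) held by each of its 12 members in each animal, adults at the left, stacked in order of mean share with transcript 7 at the base. Transcript 7 holds 46.7% in adult 6 and 25.7% in adult 5, and between 18.8% and 31.9% in the juveniles.

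Transcript 7 held 25.7% (95% Wilson interval 24.7 to 26.8) of the locus in adult 5 and 46.7% (45.4 to 48.0) in adult 6. In juveniles 1 to 4 it held 29.3%, 31.9%, 26.2% and 18.8%, and no interval of these was wider than that of juvenile 2 (30.5 to 33.3). Intervals cover counting error only and take every count as independent. They are too narrow if both reads of a pair were counted. The largest library total, 31742950 counts, was that of juvenile 1. The paper's alignment summary lists no farmed library with that many read pairs, though it does not match its libraries to these animals. Both reads of a pair were therefore probably counted, and the intervals are probably too narrow. Adult 6 stood above all other animals, whereas adult 5 lay inside the range of the juveniles. The mean share was 36.2% in adults and 26.5 ± 5.68% in juveniles (SD, n = 4), a difference of 9.65 percentage points with an exact two-sided permutation p of 0.400. This difference rests on adult 6, since without it the value was -0.82 percentage points, and without adult 5 it was 20.1.

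In level, transcript 7 stood at 71.9 and 174 CPM in adults 5 and 6, against 38.4, 57.9, 43.7 and 27.7 CPM in juveniles 1 to 4. Both adults were above every juvenile, and adult 6 exceeded adult 5 by more than the whole range of the juveniles. On plain totals the adults had 69.9 and 102 CPM, against 43.2, 60.4, 49.5 and 36.5 CPM in the juveniles. The fitted log2 fold change was 1.55 (SE 0.47, edgeR adjusted p = 0.560). Without adult 6 it was 0.84, and on plain totals 0.86.

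Transcript 14, matched to a tubulin alpha chain, ran differently in the 2 adults. It held 22.7% of the locus in adult 5 and 9.76% in adult 6, against 22.9%, 17.4%, 23.8% and 27.1% in juveniles 1 to 4. Its level was 63.4 and 36.4 CPM in the adults, against 30.0, 31.5, 39.8 and 39.9 CPM in the juveniles, so adult 6 lay inside the juvenile range. Transcript 57, matched to sea star alpha-tubulin, had the same arrangement. It stood at 29.3 and 15.2 CPM in the adults, against 11.4, 14.8, 19.4 and 15.9 CPM in the juveniles. Its share was 10.5% and 4.08% in the adults, against 8.67%, 8.14%, 11.6% and 10.8% in the juveniles, and adult 6 was the lowest of all animals for both members. On plain totals adult 6 was also lowest in level, at 21.3 CPM for transcript 14, against 32.9 to 52.8 CPM in the juveniles, and at 8.93 CPM for transcript 57, against 12.8 to 22.0 CPM in the juveniles.

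Transcript 74, matched to the neural alpha 2 tubulin of the sea urchin, had the widest spread among the juveniles of the 3 matched members. It stood at 44.2 and 49.5 CPM in adults 5 and 6, against 14.8, 46.1, 37.6 and 29.4 CPM in juveniles 1 to 4. Juvenile 1 was low and juvenile 2 lay between the adults, so the groups overlapped. Its share of the locus was 15.8% and 13.3% in the adults, against 11.2%, 25.4%, 22.5% and 20.0% in the juveniles. The fitted log2 fold changes of the matched members were 0.50 (SE 0.36) for transcript 14, 0.54 (SE 0.38) for transcript 57 and 0.55 (SE 0.46) for transcript 74. Their edgeR adjusted p-values were 0.650, 0.647 and 0.695. These directions depend on the scaling and on single animals. On plain totals the 3 values were 0.013, 0.073 and -0.021, and without adult 5 transcript 14 stood at 0.031 and transcript 57 at -0.025. Without adult 6 transcript 14 stood at 0.92 and transcript 57 at 1.01, and transcript 74 moved to 0.85 without juvenile 2.

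**Figure D3:**
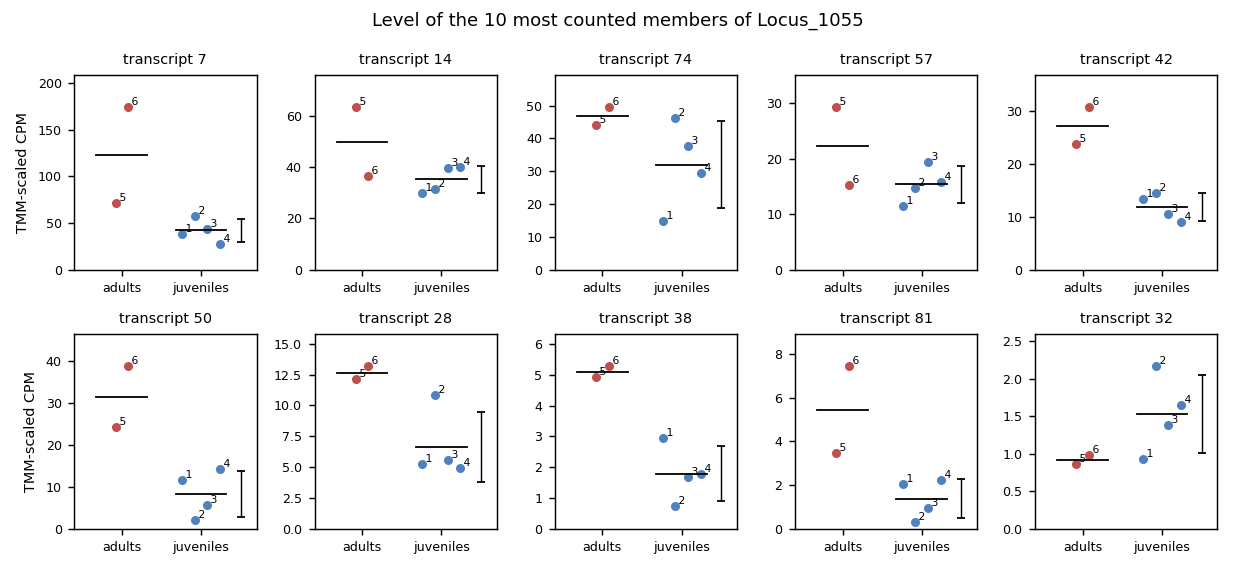
TMM-scaled CPM of the 10 most counted members of Locus_1055, adults at the left in red and juveniles at the right in blue, 1 point per animal numbered as in the text. Lines give group means and the bar beside the juveniles their SD (n = 4). Transcripts 7, 42, 50, 28, 38 and 81 have both adults above every juvenile, and transcript 32 has the adults at 0.865 and 0.977 CPM, at the low end of the juveniles.

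Transcripts 42 and 28, which have no match, followed transcript 7. Transcript 42 stood at 23.7 and 30.7 CPM in adults 5 and 6, against 13.4, 14.5, 10.5 and 8.91 CPM in juveniles 1 to 4. Both adults lay above every juvenile, while its share of the locus had means of 8.34% in adults and 7.62 ± 1.93% in juveniles (SD, n = 4). Transcript 28 stood at 12.1 and 13.2 CPM in the adults, against 5.25, 10.9, 5.54 and 4.93 CPM in the juveniles, where juvenile 2 came close to the adults. The fitted log2 fold changes were 1.20 (SE 0.33) for transcript 42 and 0.93 (SE 0.41) for transcript 28, both with an edgeR adjusted p of 0.560. With plain totals these were 0.61 and 0.38. On that scale transcript 28 stood at 11.8 and 7.71 CPM in the adults and at 11.3 CPM in juvenile 2, so its groups then overlapped.

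Transcript 50 had the widest range of the tested members, 19.5 times from the lowest to the highest animal. It stood at 24.2 and 38.7 CPM in adults 5 and 6, against 11.5, 1.99, 5.66 and 14.2 CPM in juveniles 1 to 4. The adults lay above every juvenile, and juvenile 2 was the lowest animal. Its fitted log2 fold change was the largest of the tested members, 1.91 with an SE of 0.67 and an edgeR adjusted p of 0.560. On plain totals it was 1.20. Transcript 81 (356 nt) repeated this pattern at a lower level, with 3.46 and 7.42 CPM in the adults, against 2.05, 0.309, 0.973 and 2.21 CPM in the juveniles. Transcript 38 (573 nt) stood at 4.93 and 5.28 CPM in the adults, against 2.95, 0.750, 1.68 and 1.79 CPM in the juveniles. Juvenile 2 was again the lowest animal for both.

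Transcript 32 (744 nt) was the only member with a lower mean level in adults on scaled totals. It was counted 20 and 15 times in adults 5 and 6, against 33, 49, 47 and 62 times in juveniles 1 to 4. Its share of the locus was 0.309% and 0.262% in the adults, against 0.705%, 1.19%, 0.830% and 1.12% in the juveniles. These shares did not overlap, the only such case among the 12 members, and shares do not depend on the scaling. Of all transcripts with a count in every animal in loci with 2 or more counted transcripts, 18.8% had shares that did not overlap, so 1 member is no more than the table at large gives. The exact two-sided permutation p was 0.0667, the smallest possible. In level the groups overlapped, since juvenile 1 had 0.926 CPM and adult 6 had 0.977 CPM. The 2 remaining members were transcript 59 (256 nt), with 0.146% to 0.561% of the locus, and transcript 27 (128 nt), with at most 0.219%. Transcript 27 had 0 counts in juvenile 4, which allows a share of up to 0.0543% at a floor of 3 counts (the upper Wilson limit is 0.0695%), and 3 to 9 counts elsewhere.

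Levels of members were also set beside each other per kb of full length. Only reads with a unique match were counted, and the part of each member that can collect such reads is unknown. The order of members below is therefore uncertain. Per kb of transcript, transcript 7 stood first, with 105 and 254 CPM per kb in adults 5 and 6, against 56.0, 84.4, 63.7 and 40.3 CPM per kb in juveniles 1 to 4. Transcript 14 followed with a mean of 72.3 CPM per kb in adults and 51.2 ± 7.66 CPM per kb in juveniles (SD, n = 4). Within the juveniles these 2 did not differ beyond their spread, and juvenile 4 had the reverse order. Transcript 42 averaged 51.5 CPM per kb in adults and 22.4 ± 4.89 CPM per kb in juveniles, and transcript 57 averaged 49.1 CPM per kb in adults and 33.8 ± 7.27 CPM per kb in juveniles. Transcript 74 averaged 23.2 CPM per kb in adults and 15.8 ± 6.60 CPM per kb in juveniles. Its share of the locus per kb was 5.12% in adults and 7.18 ± 2.42% in juveniles.

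Of the 12 members, 7 had at least 3 CPM in 3 or more juveniles and in both adults and were tested among 9979 transcripts. The untested ones are transcripts 38, 81, 32, 59 and 27. None of the 7 passed an adjusted p of 0.05 in edgeR's quasi-likelihood test, and no other transcript did (0% called). At an unadjusted p below 0.05 there were 3 members, transcripts 7, 42 and 50, all higher in adults, against 3.98% of all tested transcripts in that direction and 8.3% in either. All 7 had a log2 fold change above 0 on scaled totals, which 42.5% of all tested transcripts had, and on plain totals 6 of 7 did. Their median was 0.93, and the median of all tested transcripts was -0.11. Members of 1 locus share sequence and animals and are not independent of each other. Both adults lay above every juvenile for 4 of the 7 tested members, against 8.55% of all tested transcripts, and for 3 of the 5 untested ones (transcripts 38, 81 and 59), against 4.26% of untested transcripts with a count in every animal. On plain totals this held for 3 of the 7 and 1 of the 5, against 1.88% and 0.977%, since transcripts 28, 38 and 59 then overlapped. DESeq2 called transcripts 42 and 7, with adjusted p-values of 0.0218 and 0.0438, among 190 transcripts it called, and edgeR's exact test called none of the members and 11 transcripts in all.

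**Figure D4:**
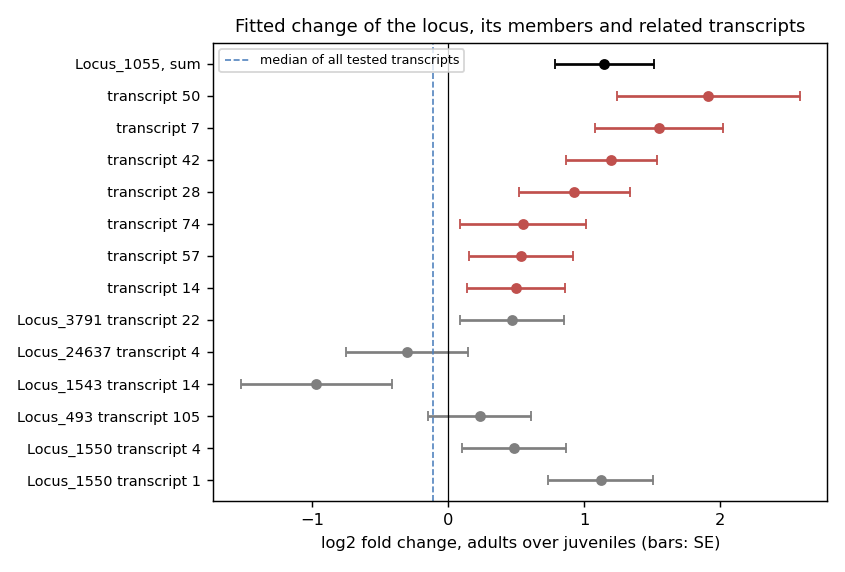
Fitted log2 fold change (adults over juveniles) with its SE for the Locus_1055 sum in black, its 7 tested members in red and related tested transcripts of other loci in grey. The dashed line is the median of all 9979 tested transcripts, -0.11. The members lie between 0.50 and 1.91 (on plain totals transcript 74 turns to -0.021), and no value shown passes an adjusted p of 0.05.

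Whether the make-up of the locus differed apart from its level was tested with edgeR's diffSpliceDGE, which sets each member's change against that of its locus. None of the 7 members had a shifted share among 3646 transcripts (0% called, and 1.21% at an unadjusted p below 0.05, which no member reached). The largest shift was that of transcript 50, 0.86 on the log2 scale with an edgeR p of 0.116 before adjustment. Transcripts 7 and 42 had shifts of 0.50 and 0.15, and the matched transcripts 14, 57 and 74 had shifts of -0.55, -0.51 and -0.50. The test of the whole locus gave an adjusted p of 1.00.

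The make-up also differed between animals of 1 group. The share of locus counts that would have to move from member to member to turn one animal into another was 23.5% between adults 5 and 6. Between an adult and a juvenile it ran between 6.87% and 31.8% with a median of 20.0%, and between juveniles it ran between 11.1% and 23.4% with a median of 15.9%. Of the 8 pairs of an adult and a juvenile, 3 exceeded every pair within a group, all of them with adult 6. The closest pair of all 15 was adult 5 and juvenile 1, at 6.87%, and the most distant was adult 6 and juvenile 4. Over the tested members the mean distance was 18.2%, against a median of 12.8% over the 79 loci with at least 5 tested transcripts and a count in every animal, and 72.2% of these loci had a smaller value.

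Some members kept a nearly fixed ratio to each other while their level changed. Transcript 81 was counted 0.143 and 0.192 times as often as transcript 50 in adults 5 and 6, against 0.178, 0.156, 0.172 and 0.156 times in juveniles 1 to 4. The correlation of their log2 CPM over the 6 animals was r = 0.995 (exact permutation p = 0.00139, adjusted p = 0.0382) and rho = 1.00 (exact permutation p = 0.00278, adjusted p = 0.0764). It was 0.994 without the 2 animals farthest from the median of transcript 50. Adjustment was made over 55 pairs of 11 members, with transcript 27 left out for its 0 count. Of these pairs, 6 had an adjusted p below 0.05 for r and none for rho. All values share the same libraries and scaling.

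The other pairs near the top fell into the same sets as the levels above. Transcripts 14 and 57 had r = 0.957 (exact permutation p = 0.00278, adjusted p = 0.0382) and rho = 0.943 (exact permutation p = 0.0167, adjusted p = 0.131), and transcript 57 was counted 0.463 and 0.419 times as often as transcript 14 in the adults, against 0.379, 0.469, 0.487 and 0.398 times in the juveniles. Their r was 0.674 without the 2 farthest animals, so part of it rests on those. Transcripts 7 and 42 had r = 0.933 (exact permutation p = 0.00417, adjusted p = 0.0382) and rho = 0.943 (exact permutation p = 0.0167, adjusted p = 0.131), with 0.830 without the 2 farthest. Transcripts 7 and 28 had r = 0.862 (exact permutation p = 0.00139, adjusted p = 0.0382) and rho = 1.00 (exact permutation p = 0.00278, adjusted p = 0.0764), with 0.966 without the 2 farthest. Transcripts 7 and 14, the most counted pair, had r = 0.133 (exact permutation p = 0.782, adjusted p = 0.827) and rho = 0.086 (exact permutation p = 0.919, adjusted p = 0.936).

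Markers of other cells of the body wall were set beside these members, with names from the supplement. Its list holds only transcripts that differed between wild and farmed animals, so the markers are not a full set for any cell type. The 8 muscle transcripts, among them myosin heavy chain, filamin, leiomodin and the calcium pump SERCA, summed to 2923 and 2657 CPM in adults 5 and 6, against 1807, 180, 510 and 2569 CPM in juveniles 1 to 4. All 8 were tested and had a log2 fold change above 0, with a median of 0.63, and none passed an adjusted p of 0.05. The 8 come from 7 loci, since 2 filamin transcripts share Locus_560. Myosin heavy chain made up most of the muscle sum in every animal but juvenile 2. It stood at 2071 and 1854 CPM in adults 5 and 6, against 1328, 41.3, 316 and 1923 CPM in juveniles 1 to 4. Juvenile 2, the animal with the lowest muscle sum, was also the lowest for transcripts 38, 50 and 81. Alpha-actinin-2 stood at 71.1 CPM in juvenile 2 and was lowest in juvenile 3, at 28.3 CPM. Every other muscle transcript was lowest in juvenile 2. Transcript 50 and the muscle sum had r = 0.946 (exact permutation p = 0.00417, adjusted p = 0.0733) and rho = 0.943 (exact permutation p = 0.0167, adjusted p = 0.122), and r was 0.693 without the 2 farthest animals. Other lists gave like values. Transcript 50 had r = 0.945 with the sum of 5 neuronal transcripts (exact permutation p = 0.00694, adjusted p = 0.0733) with rho = 0.943 (exact permutation p = 0.0167, adjusted p = 0.122), and r was 0.768 without the 2 farthest. The largest r of all was that of transcript 59 with the neuronal sum, 0.967 (exact permutation p = 0.00278, adjusted p = 0.0733), with rho = 0.943 (exact permutation p = 0.0167, adjusted p = 0.122) and 0.918 without the 2 farthest. That r rests on few counts, since transcript 59 had 35 and 18 counts in adults 5 and 6, and 6 to 31 in the juveniles. Over 44 such relations of 11 members with 4 lists, none had an adjusted p below 0.05.

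**Figure D5:**
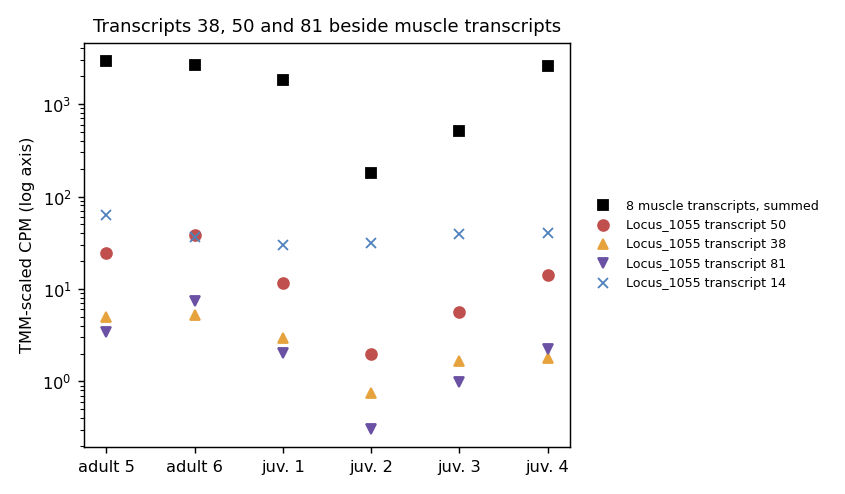
TMM-scaled CPM on a log axis in each animal, adults at the left, for the summed 8 muscle transcripts (black squares) and for Locus_1055 transcripts 50, 38, 81 and 14. The muscle sum and transcripts 38, 50 and 81 are lowest in juvenile 2, at 180, 0.750, 1.99 and 0.309 CPM, while transcript 14 stands there at 31.5 CPM.

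The 5 neuronal transcripts summed to 99.8 and 105 CPM in adults 5 and 6, against 65.0, 41.3, 70.2 and 90.2 CPM in juveniles 1 to 4. Of these, 3 were tested, all with a log2 fold change above 0 and none past an adjusted p of 0.05. Most of the sum came from a receptor-type protein phosphatase N2-like transcript (56.0 and 48.3 CPM in the adults, a mean of 27.2 ± 11.1 CPM in the juveniles), a glycine transporter (22.96 and 35.6 CPM, against 24.4 ± 7.74 CPM) and a homolog of the channel subunit UNC79 (18.9 and 19.9 CPM, against 9.30 ± 2.65 CPM). The other 2 had lower means in adults. Synaptogyrin, a protein of synaptic vesicles, stood at 0.822 and 0.456 CPM in the adults, against 0.337, 3.13, 0.501 and 3.15 CPM in the juveniles. The RNA-binding protein ELAV stood at 1.12 and 0.782 CPM in the adults, against 5.50, 1.24, 2.62 and 6.59 CPM in the juveniles. Transcript 74, matched to a neural tubulin, was lowest in juvenile 1, whereas the neuronal sum was lowest in juvenile 2. The 5 axoneme transcripts, from the core of cilia, summed to 20.0 and 15.3 CPM in the adults, against 34.7, 52.6, 27.0 and 18.1 CPM in the juveniles, and only axonemal dynein heavy chain 10 was tested (log2 fold change -0.97, SE 0.55, edgeR adjusted p = 0.582). The 8 collagen transcripts summed to 369 and 480 CPM in the adults, against 171, 126, 253 and 59.4 CPM in the juveniles, with all 6 tested ones above 0 and none past an adjusted p of 0.05. None of these markers was at 0 in any animal. Their part in the values of Locus_1055 was not tested, and in pieces of body wall more cells of a type and more RNA per cell cannot be told apart.

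One other locus has an alpha tubulin match in the supplement's list, Locus_3791, and the ratio of the counts of both loci does not depend on the scaling. Alpha tubulin loci that did not differ between wild and farmed animals would not be listed. Its transcript 22 is matched to alpha-tubulin of the choanoflagellate Codosiga gracilis, and that transcript holds between 4.89% and 8.50% of the counts of its locus, which has 6 counted transcripts. The locus summed to 347 and 203 CPM in adults 5 and 6, against 193, 263, 279 and 270 CPM in juveniles 1 to 4, with a fitted log2 fold change of 0.21 (SE 0.40). Locus_3791 was counted 1.24 and 0.544 times as often as Locus_1055 in the adults, against 1.47, 1.45, 1.67 and 1.83 times in the juveniles. Both adults lay below every juvenile in this ratio, with means of 0.893 in adults and 1.60 ± 0.181 in juveniles (SD, n = 4 juveniles, exact two-sided permutation p = 0.0667, the smallest possible).

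Transcripts of other parts of the microtubule system lay on both sides of 0. Gamma-tubulin, which seeds microtubules, was matched in transcript 4 of Locus_24637 and stood at 9.73 and 5.54 CPM in adults 5 and 6, against 12.4, 5.74, 7.55 and 12.0 CPM in juveniles 1 to 4 (log2 fold change -0.30, SE 0.45, edgeR adjusted p = 0.833). Of the 4 transcripts of motors and folding, 3 were tested, all with a log2 fold change above 0 and none past an adjusted p of 0.05. Cytoplasmic dynein light chain 2, a subunit of the motor that runs to the microtubule minus end, was matched in transcript 1 of Locus_1550 and stood at 78.8 and 155 CPM in the adults, against 49.7, 51.1, 60.4 and 53.7 CPM in the juveniles (log2 fold change 1.12, SE 0.38, edgeR adjusted p = 0.560). Transcript 4 of that locus has the same match and stood at 3.37 and 6.25 CPM in the adults, against 2.86, 4.37, 3.48 and 3.01 CPM in the juveniles. Its groups overlapped (log2 fold change 0.49, SE 0.38, edgeR adjusted p = 0.676). T-complex protein 1 subunit zeta, part of the chaperonin that folds tubulin and actin, stood at 51.3 and 26.5 CPM in the adults, against 26.7, 39.0, 35.0 and 31.7 CPM in the juveniles. Kinesin light chain, the cargo-binding subunit of a motor that runs to the plus end, stood at 1.51 and 0.391 CPM in the adults, against 4.01, 3.18, 3.15 and 4.75 CPM in the juveniles and was not tested.

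Among 196 named loci that passed the filter, the 5 whose log2 CPM ran most alike to that of Locus_1055 over the 6 animals had r between 0.950 and 0.987, against a median of 0.284 over these loci. They were matched to a mitochondrial NAD(P) transhydrogenase (Locus_1283, r = 0.987, rho = 0.943), a bis(5'-nucleosyl)-tetraphosphatase (Locus_20396, r = 0.984, rho = 0.943), a non-erythrocytic spectrin alpha chain (Locus_181, r = 0.968, rho = 0.829), the beta 1 subunit of adaptor protein complex 1 (Locus_5987, r = 0.954, rho = 0.829) and a Golgi-specific brefeldin A-resistance factor (Locus_31716, r = 0.950, rho = 0.943). Locus_1283 stood at 175 and 218 CPM in adults 5 and 6, against 72.3, 107, 81.5 and 82.3 CPM in juveniles 1 to 4. All 5 had both adults above every juvenile, as the choice by likeness to Locus_1055 would give, and all share its libraries and scaling.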

How the data were processed

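The deposited table holds raw counts, 1 column per animal and 1 row per assembled transcript. To make it the authors aligned read pairs with HISAT2, of unstated version, against their own assembly of wild body wall RNA and dropped every read that matched more than 1 place. Per the submitters' notes and the paper they then used edgeR 3.20.9. Transcripts similar to one another had been removed from the assembly as redundant before mapping. Here the deposited counts were analysed in edgeR 4.0.16 and, as an alternative, DESeq2 1.42.0 (R 4.3.3, limma 3.58.1). Transcripts or loci with at least 3 CPM on plain totals in 3 or more juveniles and in both adults were kept, TMM factors were computed on them, and adults were compared with juveniles by the quasi-likelihood test with Benjamini-Hochberg adjustment and no covariate. The fit of loci used its own TMM factors, while printed levels use those of the transcripts. Shares were tested with diffSpliceDGE and, for single values, by an exact permutation test over animals. Fits were tested on simulated data. P-values of the edgeR and DESeq2 fits rest on a spread between these animals that is partly shared over all transcripts or loci fitted. Permutation p-values rest on arrangements of these animals, and those of correlations include the difference between the groups.

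Values in every animal were given for the 3 matched members and the 10 with the largest mean share. The other members got length and share. Lists of related and marker transcripts came from descriptions in the supplement's list of transcripts that differed between wild and farmed animals. The 5 most alike loci were those with the largest r of log2 CPM (prior count 2) among loci named there. The members and lists were chosen with earlier results of these data known. Alternatives covered the scaling, the filter, the tool, mitochondrial and ribosomal RNA loci, transcripts under 150 nt, the most counted member and each animal. No sequence of a member was used here, and the wild animals of the paper were not analysed here.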

Additional observations from a re-analysis of the deposited data

Results flagged for a closer look

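Transcript 28 of Locus_1055 stood at 10.9 CPM in juvenile 2, far from the other 3 juveniles, which lay between 4.93 and 5.54 CPM. The gap was 0.897 of the range of the group by Dixon's ratio. Of 25 groups of juvenile values examined (the locus sum and the level and share of each member) this was the only one past the limit, and chance alone flags about 1 in 20.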

How the results depend on the processing

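The locus sum kept its direction under every setting tried. DESeq2 brought it past the threshold at 1.21 (adjusted p = 0.0363), and no other setting did. Library totals alone gave 0.45. Summing only the matched transcripts gave 0.61, and leaving out transcripts 7, 28 and 42 gave 0.85, both chosen after seeing the data. Leaving out 1 animal gave 0.94 to 1.36, with adjusted p-values of 0.249 to 1.00. The number of members past the threshold was 0 under every setting except DESeq2, which gave 2, namely transcripts 42 (1.27) and 7 (1.63). With library totals alone transcript 74 turned to -0.021. Transcript 57 ran between -0.025 and 1.01 when 1 animal was left out, transcript 14 between 0.031 and 0.92, and transcript 74 between 0.38 and 0.85. The difference in the share of transcript 7 ran between -0.82 and 20.1 percentage points when 1 animal was left out, and was 9.56 per kb. No member had a shifted share under the other scalings or filters, without mitochondrial or ribosomal RNA loci, or with 1 animal left out. DESeq2 and the exact test were not run for shares. Without juvenile 1, 3 or 4 transcript 50 was not tested, since juvenile 2 lies below the filter. Members at an unadjusted p below 0.05 numbered 3, and 0 with library totals alone or without adult 6, 6 of 11 tested with filterByExpr and 5 of 12 with no filter. With 1 adult left, that animal was assumed to vary like the others. No paired analysis was possible because no animal of one group shares a number with one of the other. The cause of these movements was not tested. Members with few counts, such as transcript 27, carry little information at this depth.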
